A study of Homo sapiens with 48 samples.

Results

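The genes described here are 31 direct transcriptional targets of p53, the tumour suppressor that turns stress signals into cell cycle arrest, DNA repair or cell death. They were named by symbol from general knowledge of the p53 pathway, with earlier results of these data known. Shares of these genes set beside those of all genes are therefore a description. Every array probe that the platform annotation assigns to 1 of these symbols was taken. Of the 31 genes, 29 had a named probe, with 46 probes among the 47323 on the array. In all, 28 genes had a probe above background on at least 4 arrays and were tested together with all other measured genes, 11886 in total. SPATA18, a mitochondrial quality control gene, had a probe that was above background on 0 arrays, and BTG2 and FDXR were not analysed here.

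p53 is normally held low by MDM2, a ubiquitin ligase that is itself a p53 target, so that a rise of p53 feeds back on its own removal. When stress signals free p53, it binds paired half-sites near its target genes and raises their transcription. The targets include CDKN1A (p21), which inhibits cyclin-dependent kinases, death genes such as BAX, FAS and BBC3 (PUMA), repair genes such as XPC and DDB2, and the sestrins, which restrain mTORC1. U2OS, a human osteosarcoma line, keeps wild-type p53 and carries a truncating mutation of PPM1D, a phosphatase that switches the p53 response off.

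The cells were a single U2OS clone that stably expresses wild-type rat glucocorticoid receptor alpha, and every group carries that receptor. Cells received no siRNA (NI), a nonspecific siRNA (siNS) or 1 siRNA against Hic-5 (siHic5_2), at 60 pmol per transfected well. Dexamethasone, a synthetic glucocorticoid hormone, was present for 0, 2, 4 or 24 h, with 4 Illumina HT-12 v4 bead arrays in each of the 12 groups, 48 in all. Hormone was added 2 days after transfection for the 24 h groups and 3 days after it for the 2 and 4 h groups, and all wells were harvested together. Hic-5, the product of TGFB1I1, is a focal adhesion protein that also acts in the nucleus as a coregulator of steroid receptors. The labels do not say that the 4 replicates were separate cultures, and a p-value therefore reflects only how these samples varied, which may be technical variation. With 1 siRNA against Hic-5, loss of Hic-5 and other effects of that oligonucleotide cannot be told apart.

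p53 binds pairs of half-sites, and the sequences below show the single or paired half-sites found in the RefSeq start windows of tested members. Of the 28 tested genes, 23 had a window in the table used, 34 windows in all, each reaching from 250 bases before a start to 50 after it (build GRCh38.p14). A perfect half-site, a 10-base motif that is its own reverse complement, was found in 5 of the 34 windows, against 6.63% of all 35116 windows. A pair of perfect half-sites with at most 13 bases between them was found only in the DDB2 window among these 34, and in 0.0285% of all windows. With 1 mismatch allowed in each of a pair of directly adjacent half-sites, the DDB2 window and the windows of an internal MDM2 start matched, against 0.387% of all windows. Capitals mark the half-sites, and all stretches are written 5′ to 3′ on the strand of the gene.
DDB2 (chr11:47214979-47214999, plus strand): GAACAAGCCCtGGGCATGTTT
MDM2, before an internal start (chr12:68808908-68808957, plus strand): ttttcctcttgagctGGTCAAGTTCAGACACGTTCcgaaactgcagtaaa
FAS (chr10:88991284-88991343, plus strand): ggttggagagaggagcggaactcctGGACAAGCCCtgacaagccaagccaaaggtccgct
SESN1 (chr6:109009003-109009062, minus strand): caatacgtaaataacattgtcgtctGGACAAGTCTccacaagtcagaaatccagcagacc
PLK2 (chr5:58460184-58460243, minus strand): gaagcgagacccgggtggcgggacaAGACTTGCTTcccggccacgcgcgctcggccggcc
AEN (chr15:88621281-88621339, plus strand): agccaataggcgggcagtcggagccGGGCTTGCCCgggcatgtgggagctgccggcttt
A match is a description of these letters and not a measured binding site, and many known p53 elements lie in introns outside such windows.

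Values are log2 intensities after background correction and quantile normalization. A gene is called in a comparison when the limma fit over all genes gave it a Benjamini-Hochberg adjusted p under 0.05. A probe is above background on an array when its detection p was under 0.01, and where no array of a group reached that, only a bound on the fold is given. The siRNA target was checked first. TGFB1I1 in siNS arrays at 0 h read 9.53, 9.67, 9.79 and 9.97, and in siHic5_2 arrays 5.99, 6.08, 6.49 and 6.75, so the groups did not overlap and the siHic5_2 mean was 9.38% of the siNS mean. At 2 h it was 9.93%, and at 4 and 24 h, where no siHic5_2 array was above background, it was at least 10.6-fold and 5.71-fold lower. Of all 16 siHic5_2 arrays 3 were above background for TGFB1I1, so the percentages at 0 and 2 h rest mostly on values below background. The exact two-sided permutation test gave p = 0.0286 at each time, the smallest that 4 against 4 arrays allow. The arrays had median intensities of 133.6 to 193 with 31.7 to 38.3% of probes above background. Of 10 osteoblast and mesenchymal markers, RUNX2, ALPL, COL1A1, SPARC and VIM were above background on all 48 arrays, while SP7, COL1A2, BGLAP and IBSP were above it on 0 to 2 arrays. SPP1 was above background on 39 arrays. Of the markers of other cell types, the epithelial EPCAM was above background on all 48 arrays, the endothelial VWF on 19 and TEK on 22, and the blood marker CD14 on 5, of which 6, 6 and 2 were siHic5_2 and 7, 8 and 1 siNS arrays for VWF, TEK and CD14. The other epithelial, endothelial and blood markers with a probe were above it on 0 to 3 arrays.

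Most of the p53 targets were called higher with the Hic-5 siRNA, before hormone and at each hormone time, and none was called lower. Some fitted differences lay below 0 without a call, such as those of PERP (-0.50) and SESN1 (-0.37) at 24 h. At 0 h, 18 of the 28 tested genes were higher and 0 lower, where 13.8% of all genes were higher and 12.1% lower. At 2 h 19 were higher (14.3% of all genes higher, 11.5% lower), at 4 h 17 (16.3% and 14.1%), at 24 h 16 (15.8% and 13.9%), and in the mean of the 4 times 22 (29.7% and 24.8%). The fit of that mean treated all arrays of a state as independent. Same-numbered arrays of a state deviated together over the times, so standard errors and adjusted p-values of the mean are likely too small. Every count of calls in the mean, for members, lists and all genes, carries this limit. The median fitted difference of the 28 genes was 0.80, 0.74, 0.75 and 0.64 on the log2 scale at 0, 2, 4 and 24 h, against medians of all genes of 0.01, 0.02, 0.03 and 0.02. With members that had only a bound placed at it, and those without a fold at 0, these medians were 0.76, 0.64, 0.75 and 0.64. FAS, GDF15 and PLK3 reached 4 arrays above background only with the siHic5_2 arrays counted, so the filter favours a higher level there. With the filter set on NI and siNS arrays alone, a choice made after seeing the data, 25 members were tested, and 16, 17, 16 and 15 were higher and 0 lower at 0, 2, 4 and 24 h (13.7%, 14.1%, 16.1% and 15.8% of 11473 genes higher). In the mean of the times 20 of the 25 were higher and 0 lower (29.5% and 25.8% of those genes), and at 0 h all 25 fitted differences lay above 0. In all, 12 genes were higher at each of the 4 times (CDKN1A, CCNG1, PPM1D, FAS, TNFRSF10B, BAX, CYFIP2, PHLDA3, TRIAP1, SESN2, TIGAR and DRAM1), against 5.12% of all genes, and 7 were called at none (PLK3, MDM2, PERP, TP53I3, TP53INP1, ZMAT3 and DDB2), against 48.3%. Leaving out replicate 4 of every group lowered the counts of the 28 at 4 and 24 h to 11 and 10. Of the 12 genes, CCNG1, TNFRSF10B, BAX, TRIAP1, SESN2 and TIGAR then lost the call at some time. In bulk RNA a change in the share of cells that express a gene and a change of RNA per cell cannot be told apart.

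**Figure D1:**
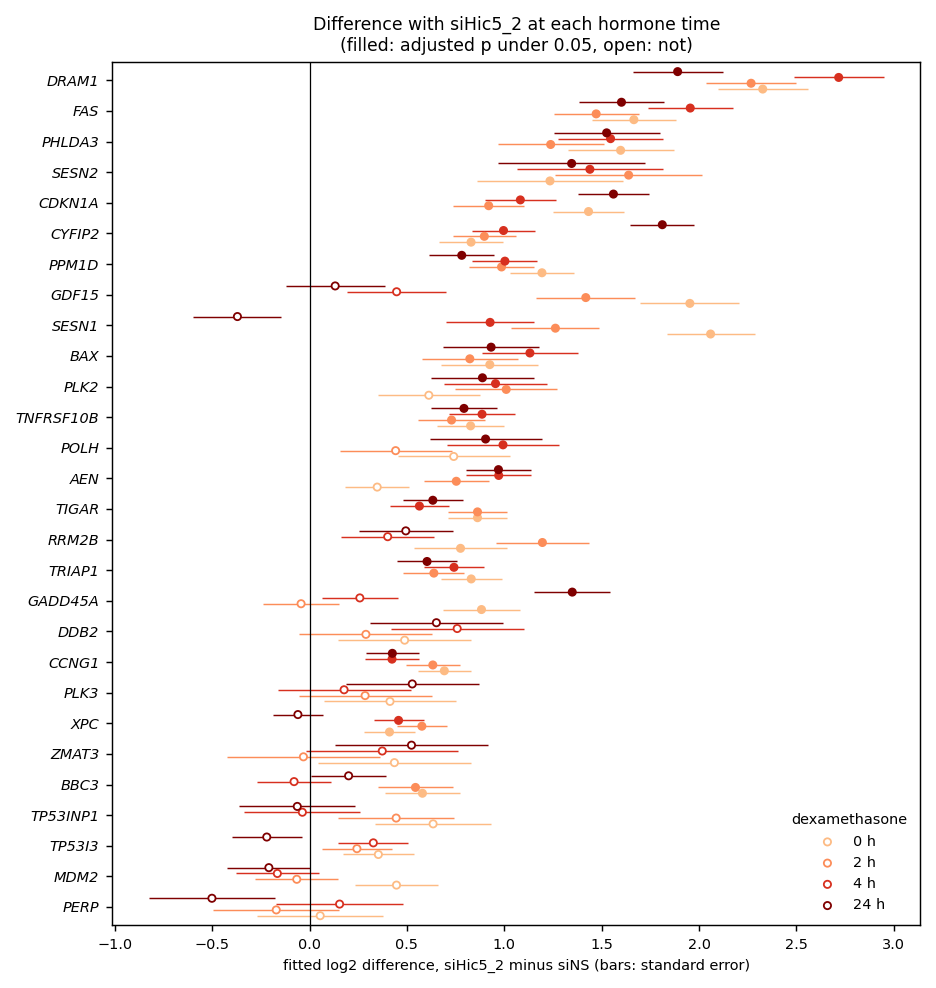
Fitted log2 difference between siHic5_2 and siNS arrays for the 28 tested p53 targets at 0, 2, 4 and 24 h of dexamethasone (4 arrays per group, bars are standard errors, filled points have an adjusted p under 0.05). DRAM1 lies farthest to the right, SESN1 and GDF15 move towards 0 with time in hormone, and MDM2 and PERP straddle 0. For groups with no array above background (FAS, GDF15, and some groups of SESN2, PLK2, PLK3 and MDM2) the fitted difference is not a measured fold.

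All 5 tested genes of metabolism, autophagy and secreted stress signals were higher in the mean of the 4 times, where 29.7% of all genes were higher and 24.8% lower, and GDF15 among them entered the test only through siHic5_2 arrays. DRAM1, a lysosomal membrane protein that links p53 to autophagy, read 7.46, 7.70, 8.04 and 8.53 in siNS arrays at 0 h and 10.11, 10.12, 10.16 and 10.65 in siHic5_2 arrays. The difference was 2.33 ± 0.23 (SE, n = 4 against 4; adjusted p = 8.21e-10, limma), or 5.02-fold. It was 2.27 at 2 h, 2.72 at 4 h and 1.89 at 24 h. On the brightest probe of each gene these were the largest differences at each time among members above background in both groups, while a dimmer CYFIP2 probe gave 1.95 at 24 h. Over all times the lowest siHic5_2 array (9.71) lay above the highest siNS array (8.53) and the highest NI array (8.28).

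SESN2, a sestrin induced by p53 and by ATF4 that restrains mTORC1, read 5.71, 6.14, 6.14 and 6.52 in siNS at 0 h and 6.85, 7.12, 7.54 and 7.93 in siHic5_2. The groups did not overlap, and the difference was 1.23 ± 0.38 (adjusted p = 0.0126). At 2 h, where no siNS array was above background, SESN2 was at least 2.13-fold higher, and it was higher by 1.44 at 4 h and 1.35 at 24 h. One siHic5_2 array at 4 h read 5.62, within the siNS range of 5.01 to 6.41, while the other three read 7.53 to 7.94. The calls at 0, 4 and 24 h were lost when replicate 4 was left out of every group, and the highest adjusted p over the settings that lost them was 0.102, 0.141 and 0.0917. TIGAR, which lowers glycolytic flux, read 9.70, 9.90, 9.97 and 10.16 in siNS at 0 h and 10.69, 10.80, 10.81 and 10.89 in siHic5_2. TIGAR was higher by 0.86, 0.86, 0.56 and 0.63 at the 4 times, and by 0.73 ± 0.08 in the mean (adjusted p = 1.37e-10). Its 4 h call was lost without replicate 1 or without replicate 4 of every group (highest adjusted p = 0.0617, limma).

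SESN1, another sestrin, was higher at 0, 2 and 4 h and was not called at 24 h. At 0 h it read 6.78, 6.92, 7.10 and 7.35 in siNS and 8.88, 8.98, 9.11 and 9.40 in siHic5_2. That difference of 2.06 ± 0.23 (adjusted p = 6.72e-09), or 4.17-fold, was followed by 1.26 at 2 h, 0.93 at 4 h and -0.37 ± 0.23 at 24 h, not called (adjusted p = 0.231). Its level at 24 h depended mainly on hormone, as described below. GDF15, a secreted stress cytokine, was not above background on any of the 16 siNS or 16 NI arrays. In siHic5_2 it read 6.21, 6.32, 6.72 and 8.02 at 0 h, and 5.68, 5.89, 6.63 and 6.997 at 2 h, against 4.60 to 5.01 and 4.67 to 5.05 in siNS. It was thus at least 1.63-fold higher at 0 h and at least 1.05-fold higher at 2 h. These bounds are a description, because GDF15 passed the filter through 6 siHic5_2 arrays and no others. At 4 and 24 h no siHic5_2 array was above background either.

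Among the cell cycle brakes, 4 of 5 tested genes were higher in the mean of the 4 times, where 29.7% of all genes were higher and 24.8% lower. CDKN1A, the cyclin-dependent kinase inhibitor p21, read 11.79, 12.14, 12.18 and 12.54 in siNS at 0 h and 13.44, 13.52, 13.55 and 13.87 in siHic5_2. The difference was 1.43 ± 0.18 (adjusted p = 1.38e-07), or 2.70-fold, then 0.92 at 2 h, 1.08 at 4 h and 1.56 at 24 h. The siHic5_2 arrays at 24 h read 13.88 to 14.21, the highest of the 12 groups by mean. Over all times the siHic5_2 arrays (13.29 to 14.21) lay above every siNS array (11.79 to 13.03) and every NI array (11.86 to 12.90). A dimmer second CDKN1A probe, above background on 11 arrays, gave a mean difference of 0.93, also called.

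CCNG1 (cyclin G1), which recruits a phosphatase to MDM2, was higher by 0.69, 0.63, 0.42 and 0.42 at the 4 times and by 0.54 ± 0.07 in the mean (adjusted p = 1.16e-08). Its calls at 4 and 24 h were lost in 3 and 4 settings that left out arrays, among them replicate 4 of every group (highest adjusted p of 0.181 and 0.213), and with only the groups compared (0.0548 and 0.0888). GADD45A, a stress sensor that inhibits CDK1, was called at the ends of the time course but not between them. It read 9.49, 9.49, 9.54 and 9.87 in siNS at 24 h and 10.75, 10.86, 10.96 and 11.21 in siHic5_2, a difference of 1.35 ± 0.20 (adjusted p = 1.16e-06). At 0 h the difference was 0.88 (adjusted p = 0.000758), at 2 h -0.04 and at 4 h 0.26, neither of them called. PLK2, a polo-like kinase, was not above background in siNS at 2 h and at least 1.32-fold higher in siHic5_2 there (adjusted p = 0.00359). It was higher by 0.95 at 4 h and 0.89 at 24 h, while the 0.61 at 0 h was not called (adjusted p = 0.0826). The PLK2 calls at 4 and 24 h were lost without replicate 2 or without replicate 4 of every group (highest adjusted p of 0.0780 and 0.196). PLK3, its relative, was above background on at most 2 arrays of any group and was not called at any time.

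Of the 2 genes that feed back on p53, PPM1D was called against siNS at each time and MDM2 at none. PPM1D read 9.49, 9.88, 9.89 and 9.95 in siNS at 0 h and 10.87, 10.87, 10.93 and 11.32 in siHic5_2, with no overlap. The difference was 1.19 ± 0.17 (adjusted p = 9.36e-07), or 2.29-fold, then 0.99, 1.00 and 0.78 at the later times. MDM2 was near background throughout: 18 of 48 arrays were above it, 7 in NI, 5 in siNS and 6 in siHic5_2. It read 5.88, 6.12, 6.15 and 6.38 in siNS at 0 h and 6.11, 6.62, 6.67 and 6.92 in siHic5_2, overlapping groups that differed by 0.45 ± 0.21 (adjusted p = 0.124). At 2 and 4 h no siHic5_2 array was above background, and at 24 h the difference was -0.21 (adjusted p = 0.513). With NI in place of siNS, MDM2 was called higher at 0 h (0.59, adjusted p = 0.0349, limma) and not at the later times or in the mean. The other MDM2 probe was above background on 0 arrays.

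**Figure D2:**
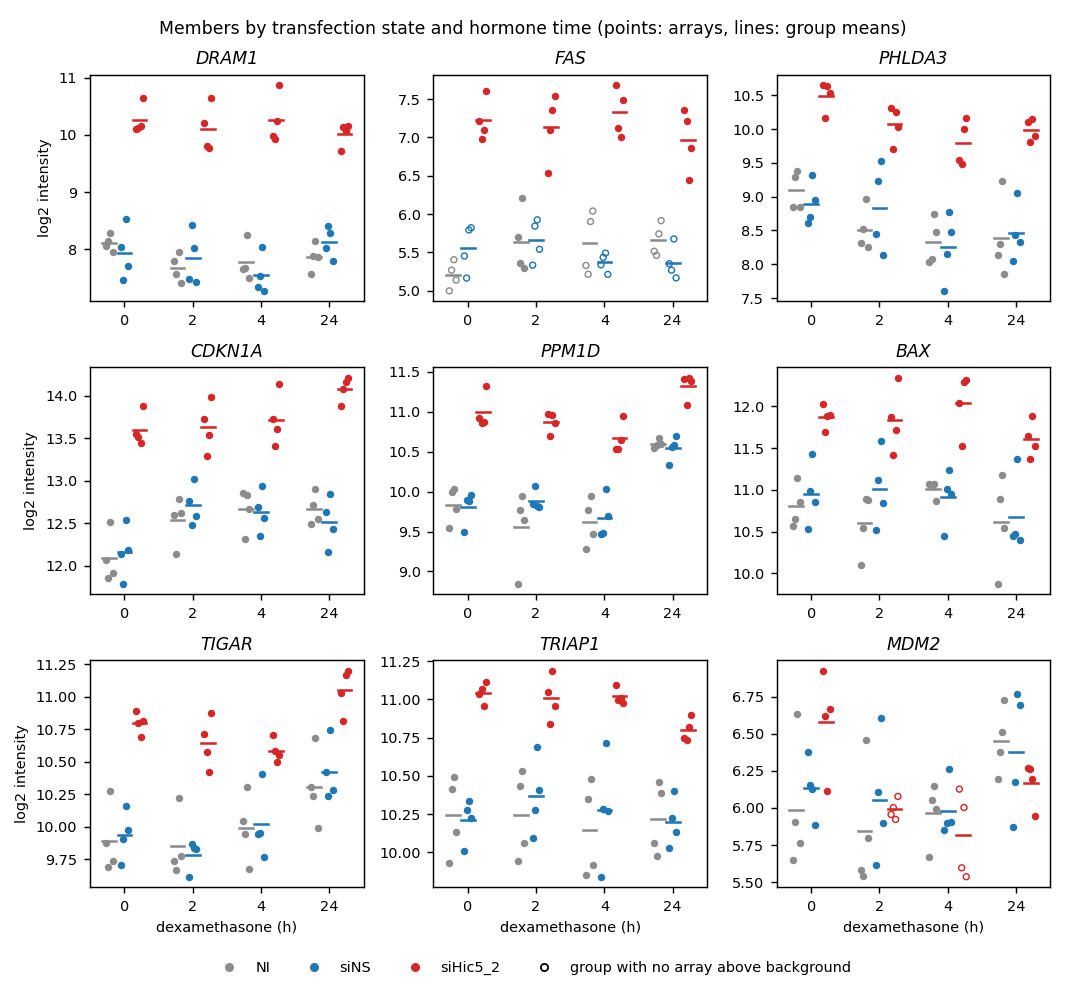
Log2 intensity of 9 p53 targets on each of the 48 arrays, by hours of dexamethasone and transfection state (grey NI, blue siNS, red siHic5_2; lines are means of 4 arrays, open points mark groups with no array above background). For DRAM1, FAS, CDKN1A and TRIAP1 all 16 siHic5_2 arrays lie above all 32 others, and for MDM2 the states overlap. FAS passed the filter through its siHic5_2 arrays.

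Of 12 tested cell death genes, 8 were higher in the mean of the 4 times and 0 lower, where 29.7% of all genes were higher and 24.8% lower. FAS, the death receptor for Fas ligand, was above background on all 16 siHic5_2 arrays and on 0 of 16 siNS and 1 of 16 NI arrays. It read 6.98, 7.09, 7.22 and 7.61 in siHic5_2 at 0 h against 5.17, 5.45, 5.79 and 5.82 in siNS. It was at least 2.154-fold, 1.87-fold, 2.27-fold and 1.68-fold higher at 0, 2, 4 and 24 h. These bounds are a description, because FAS passed the filter through the siHic5_2 arrays. The FAS window shown above holds 1 perfect half-site, 122 bases before that start.

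PHLDA3, a repressor of AKT signalling, read 8.61, 8.71, 8.95 and 9.32 in siNS at 0 h and 10.16, 10.53, 10.63 and 10.65 in siHic5_2. It was higher by 1.60 ± 0.27 (adjusted p = 2.41e-05), or 3.03-fold, and by 1.24, 1.55 and 1.53 afterwards. CYFIP2, a binding partner of FMRP and part of the WAVE complex, read 10.21, 10.41, 10.48 and 10.53 in siNS at 0 h and 11.05, 11.28, 11.29 and 11.31 in siHic5_2. Its difference was 0.83 at 0 h, 0.90 at 2 h, 1.00 at 4 h and 1.81 ± 0.16 at 24 h (adjusted p = 3.83e-11), or 3.51-fold.

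BAX, which opens the outer mitochondrial membrane, read 10.53, 10.86, 10.99 and 11.44 in siNS at 0 h and 11.69, 11.89, 11.90 and 12.03 in siHic5_2. Its differences were 0.93, 0.82, 1.13 and 0.93 at the 4 times, and without replicate 4 of every group the 0, 2 and 24 h calls were lost (adjusted p of 0.0572 at 0 h and 0.0541 at 24 h). TNFRSF10B, the TRAIL receptor DR5, read 9.75, 10.42, 10.47 and 10.53 in siNS at 0 h and 10.97, 11.03, 11.15 and 11.33 in siHic5_2. All 4 times passed in the main fit, with differences of 0.83, 0.73, 0.89 and 0.79, and its other kept probes gave mean differences of 0.45 and 0.95. Its 2 h call was lost without replicate 4 of every group (adjusted p = 0.0715, limma). TRIAP1, a small inhibitor of apoptosis, read 10.01, 10.22, 10.28 and 10.34 in siNS at 0 h and 10.96, 11.04, 11.06 and 11.11 in siHic5_2. TRIAP1 was thus higher by 0.83, 0.64, 0.74 and 0.60. Its 24 h call was lost without replicate 4 of every group (adjusted p = 0.0604, limma). AEN, an apoptosis-enhancing nuclease, read 10.64, 10.79, 10.89 and 11.25 in siNS at 4 h and 11.76, 11.82, 11.88 and 11.99 in siHic5_2. Its difference was not called at 0 h (0.35, adjusted p = 0.123) and was 0.75, 0.97 and 0.97 later.

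The other death genes passed at fewer times or at none. BBC3 (PUMA), which frees BAX from its inhibitors, was higher by 0.58 at 0 h (adjusted p = 0.0215) and 0.54 at 2 h, differed by -0.08 at 4 h and 0.20 at 24 h without a call, and by 0.31 ± 0.10 in the mean. The calls at 0 and 2 h were lost with NI in place of siNS (adjusted p of 0.1195 and 0.0629) and in 5 and 6 settings that left out arrays (up to 0.495 and 0.259), and the mean was lost without replicate 4 of every group (0.0703). PERP, a desmosomal protein with a role in apoptosis (mean difference -0.12 ± 0.16), TP53I3, a quinone reductase (0.18 ± 0.09), and TP53INP1, a cofactor of p53 phosphorylation (0.24 ± 0.15), were not called (adjusted p of 0.570, 0.0972 and 0.164). With NI in place of siNS, TP53I3 (0.24, adjusted p = 0.0226) and TP53INP1 (0.34, adjusted p = 0.0467) were called higher in the mean, and PERP was not called.

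For ZMAT3, an RNA-binding protein that acts in p53-dependent tumour suppression, the result depended on the probe. Its brightest probe, used in the counts above, read 12.20 to 14.26 among the siNS arrays at 24 h and differed by 0.33 ± 0.20 in the mean (adjusted p = 0.160). Its other kept probes, both above background on all 48 arrays, differed by 1.37 and 1.27 (adjusted p of 5.70e-15 and 1.92e-17 over all kept probes). On the second of the 3 the siNS arrays at 0 h read 10.91, 11.05, 11.30 and 11.52 and the siHic5_2 arrays 12.41, 12.71, 12.86 and 12.92. On the last the same groups read 9.89, 10.02, 10.06 and 10.18, and 11.25, 11.33, 11.44 and 11.54, so that neither pair overlapped. Among the 12 genes with over 1 kept probe this spread of 1.04 between probes was the widest. The next widest was CYFIP2 (0.58), with both probes called, then POLH (0.53), where the dimmer probe was not called (0.24, adjusted p = 0.124).

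**Figure D3:**
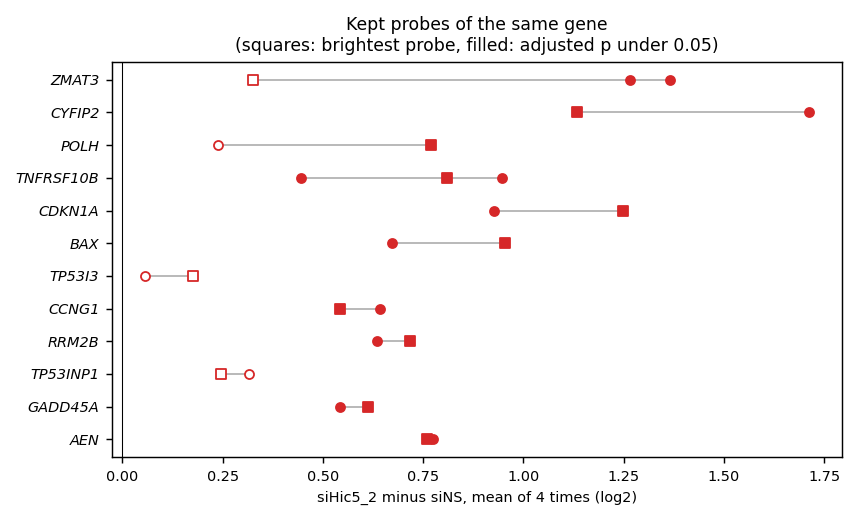
Mean difference over the 4 times between siHic5_2 and siNS for each kept probe of the 12 p53 targets with over 1 kept probe (log2 scale, squares are the brightest probe of the gene, filled symbols have an adjusted p under 0.05). All probes lie above 0, and ZMAT3 spans 0.33 to 1.37.

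All 4 DNA repair and nucleotide supply genes were higher in the mean of the 4 times, where 29.7% of all genes were higher and 24.8% lower. XPC, which recognises bulky DNA lesions, was higher by 0.41, 0.58 and 0.46 at 0, 2 and 4 h and differed by -0.06 at 24 h without a call. Its calls at 0 and 4 h were lost in 4 and 3 settings that left out arrays, replicate 1 of every group among them (highest adjusted p of 0.0962 and 0.1015), and with only the groups compared (0.0745 and 0.0798). RRM2B, the p53-inducible ribonucleotide reductase subunit, read 9.07, 9.39, 9.64 and 9.72 in siNS at 2 h and 10.33, 10.62, 10.74 and 10.92 in siHic5_2. It was higher by 0.78 at 0 h and 1.20 at 2 h, while 0.40 at 4 h and 0.49 at 24 h were not called. POLH, the translesion polymerase eta, read 5.49, 5.80, 5.98 and 6.94 in siNS at 4 h and 6.92, 6.95, 7.01 and 7.31 in siHic5_2. These groups overlapped by 1 siNS array, and the difference was 0.99 at 4 h and 0.90 at 24 h, with 0.74 at 0 h and 0.44 at 2 h not called. Without replicate 4 of every group the RRM2B call at 0 h and both POLH calls were lost (highest adjusted p over the settings that lost them of 0.115, 0.119 and 0.105). DDB2, the damage recognition protein whose window holds the paired half-sites shown above, passed in the mean alone (0.55 ± 0.17, adjusted p = 0.00636), a call that was lost without replicate 1 or without replicate 4 of every group (highest adjusted p = 0.149).

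No difference was detected for these genes between the nonspecific siRNA and no siRNA. Between siNS and NI over all times 0 of the 28 were called by limma, 0 had an unadjusted p under 0.05, and 0 of all genes (0%) were called. Same-numbered siNS and NI arrays deviated together at 0, 2 and 4 h, and with the replicate number as a block over these arrays 0 of the 28 were again called, with 1 at an unadjusted p under 0.05 (SESN2, 0.34, adjusted p = 0.984), and 0% of all genes. With NI in place of siNS as the control, 18, 18, 18 and 16 members were higher with siHic5_2 at 0, 2, 4 and 24 h, and 24 in the mean. The share of all genes called against NI was not counted, so these counts are a description. They include FAS and GDF15, which passed the filter through siHic5_2 arrays. The arrays lay on 6 slides. Within slides that held both groups, 105 of 112 differences of the 28 members lay above 0 at 0 h, 49 of 56 at 2 h, 49 of 56 at 4 h and 68 of 84 at 24 h. Each member is counted once per slide, so these values are not independent of each other. They include FAS, GDF15 and PLK3, and the share over all genes was not counted, so they are a description only.

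With dexamethasone the called members went in both directions, and at 24 h their share was near that of all genes. In siNS, 2 were higher and 1 lower than at 0 h after 2 h (4.83% of all genes called), 1 higher and 1 lower after 4 h (8.19%), and 6 higher and 4 lower after 24 h (39.6%). At 24 h this was 10 of 28 members. The counts in NI were 1 higher and 1 lower (2.97%), 2 and 1 (8.82%), and 7 and 4 (39.3%). In siHic5_2 they were 0 and 1 (2.89%), 1 and 3 (11.1%), and 4 and 3 (34.8%). The replicate numbers paired arrays within a transfection state. With the replicate number as a block within each state, 4, 5 and 13 members were called in siNS at 2, 4 and 24 h (9.66%, 13.1% and 49.5% of all genes), 4, 5 and 17 in NI (5.81%, 14.1% and 49.2%), and 3, 7 and 13 in siHic5_2 (5.22%, 19.2% and 45.0%). That block added CDKN1A in siNS at 2, 4 and 24 h (0.55, 0.47 and 0.36 higher, adjusted p of 0.000369, 0.00122 and 0.00450), which without it were not called (adjusted p of 0.0740, 0.117 and 0.118). It also added TP53I3 (0.46 and 0.41 higher, adjusted p of 0.00354 and 0.00227) and PHLDA3 (-0.64 and -0.43, adjusted p of 0.00753 and 0.0325) in siNS at 4 and 24 h. Leaving out replicates lowered the siNS count at 2 h from 3 to 1 in 5 settings, in which SESN1 and GADD45A lost their calls. Known glucocorticoid-induced genes were higher in siNS at 24 h: TSC22D3 (GILZ) by 4.49, FKBP5 by 2.69 and the phosphatase gene DUSP1 by 1.26, with KLF9, PER1 and ZBTB16 also called (adjusted p of 3.38e-06, 0.0166 and 7.45e-10).

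SESN1 had the largest hormone difference of the members. In siNS it read 6.78 to 7.35 at 0 h, 7.14, 7.49, 8.29 and 8.30 at 2 h, 8.09, 8.25, 8.39 and 8.40 at 4 h, and 10.93, 11.18, 11.20 and 11.29 at 24 h. It was higher than at 0 h by 0.77 ± 0.23 at 2 h (adjusted p = 0.0345), 1.25 at 4 h and 4.12 at 24 h (adjusted p = 1.31e-18), or 17.3-fold. NI arrays gave 0.78, 1.60 and 4.14. TP53INP1 read 9.14, 9.21, 9.65 and 9.72 in siNS at 0 h and 10.87, 10.91, 11.13 and 11.18 at 24 h. It was higher by 1.60 ± 0.30 at 24 h (adjusted p = 2.83e-05), with no call at 2 or 4 h, and by 1.64 in NI and 0.90 in siHic5_2. PPM1D (0.74), CCNG1 (0.43), TIGAR (0.49) and XPC (0.48) were the other members higher in siNS at 24 h without the block. Of these, CCNG1 was lost in 3 settings that left out arrays and TIGAR in 2 (highest adjusted p of 0.156 and 0.111).

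PLK2 fell early and stayed low. In siNS it read 7.54, 7.61, 7.64 and 7.73 at 0 h and 5.29, 5.39, 5.56 and 6.25 at 2 h, where no array was above background. It was at least 2.64-fold lower at 2 h (adjusted p = 4.98e-07), and it fell by 1.81 at 4 h and fell by 1.97 at 24 h, with 1 of 4 arrays above background at each time. In siHic5_2 it read 8.05, 8.10, 8.19 and 8.65 at 0 h and fell by 1.61, 1.47 and 1.70. CYFIP2 read 10.21 to 10.53 in siNS at 0 h and 8.48, 8.69, 8.86 and 9.50 at 24 h, and fell by 1.52 ± 0.16 (adjusted p = 3.79e-10), with no call at 2 or 4 h. GADD45A was higher by 0.70 at 2 h in siNS (adjusted p = 0.0263) and fell by 0.60 at 24 h (adjusted p = 0.0121), and DDB2 was lower at 24 h (-0.85, adjusted p = 0.0434). The DDB2 call was lost under 6 other processing settings (adjusted p of 0.0514 to 0.0802) and in 7 that left out arrays (up to 0.336), and its differences within slides ran from -1.96 to 0.33. The GADD45A calls were lost in 8 and 5 settings that left out arrays (up to 0.263 and 0.126).

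**Figure D4:**
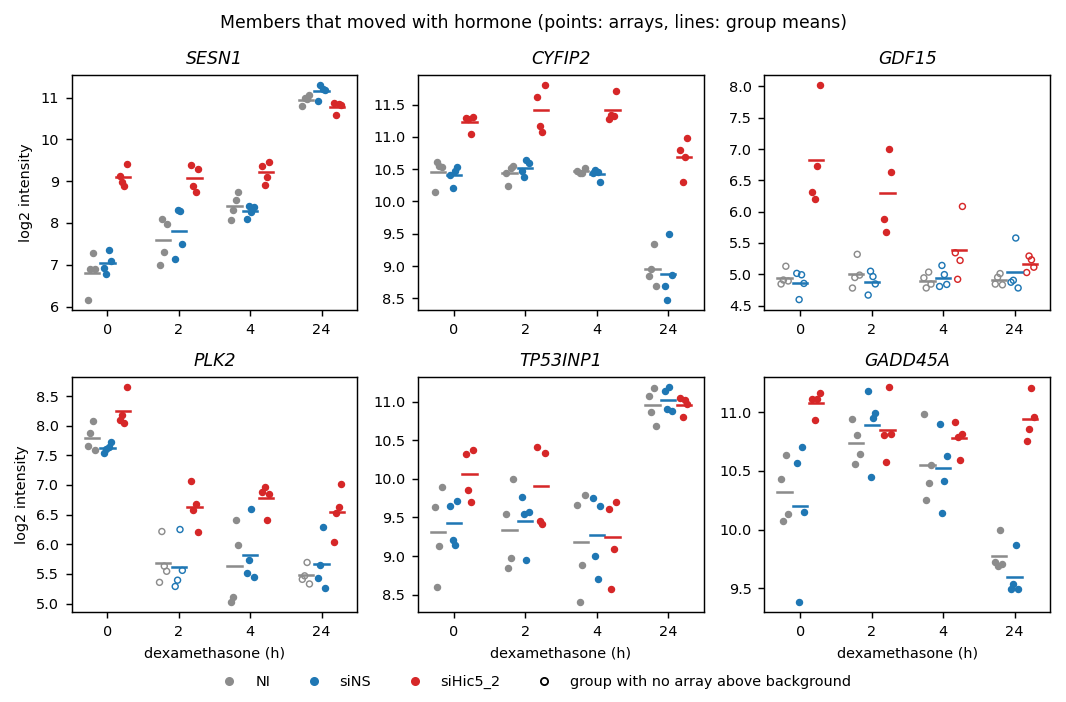
Log2 intensity of 6 p53 targets on each of the 48 arrays, by hours of dexamethasone and transfection state (grey NI, blue siNS, red siHic5_2; lines are means of 4 arrays, open points mark groups with no array above background). SESN1 and TP53INP1 are high at 24 h in all 3 states, PLK2 is low from 2 h on, and GDF15 is above background only in siHic5_2 at 0 and 2 h.

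Whether the hormone response itself differed between siHic5_2 and siNS was tested as the difference of the 2 responses. It was called for 0 members at 2 h (0.135% of all genes; 2 had an unadjusted p under 0.05), 1 at 4 h (0.454%) and 3 at 24 h (3.52%). The call at 4 h and 1 of those at 24 h were GDF15, which has no measured response in siNS, so that SESN1 and CYFIP2 at 24 h are the measured differences. With the filter set on NI and siNS arrays alone, 0, 0 and 2 members were called (0.122%, 0.384% and 3.37% of genes). In the main fit, 2, 4 and 4 of the 6 glucocorticoid-induced genes named above were called for a lower response at 2, 4 and 24 h, and 0 for a higher one. At 0 h, 3 of these 6 were called higher with siHic5_2 (13.8% of all genes) and 0 lower. SESN1 was higher at 24 h than at 0 h by 4.12 in siNS and by 1.69 ± 0.23 in siHic5_2, and these responses differed by -2.43 ± 0.32 (adjusted p = 1.92e-06). Its siHic5_2 arrays began at 8.88 to 9.40, above the siNS arrays, and ended at 10.59, 10.81, 10.85 and 10.87, beside 10.93 to 11.29 in siNS. CYFIP2 went the other way: it fell by 1.52 in siNS and by 0.54 in siHic5_2, where it read 10.31, 10.69, 10.80 and 10.98 at 24 h. The responses differed by 0.98 ± 0.23 (adjusted p = 0.00730), a call lost without replicate 1 or without replicate 4 of every group (highest adjusted p = 0.127) and with the mean of its probes (0.73, adjusted p = 0.0732). In siHic5_2 arrays GDF15 was at least 1.48-fold lower by 4 h and at least 1.57-fold lower by 24 h, below background at both. Its 4 h response call was lost in 16 of 20 settings that left out arrays. With the replicate block within each state, 1, 2 and 5 members were called at 2, 4 and 24 h (0.395%, 1.79% and 9.90% of all genes): GADD45A at 2 h (-0.93, adjusted p = 0.0398), SESN1 beside GDF15 at 4 h (-1.13, adjusted p = 0.00922), and AEN (0.62) and TP53I3 (-0.57) besides the 3 at 24 h. In siHic5_2 arrays AEN was higher than at 0 h by 0.72 at 4 h and 0.49 at 24 h, CDKN1A was higher by 0.48 at 24 h, and MDM2 was at least 1.26-fold lower at 4 h (adjusted p = 0.0126). With the mean of its probes the CDKN1A difference was -0.16 (adjusted p = 0.650), and it was lost in 10 settings that left out arrays. The MDM2 call was lost in 4 such settings and the AEN call at 24 h in 6 (highest adjusted p of 0.189 and 0.0804).

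**Figure D5:**
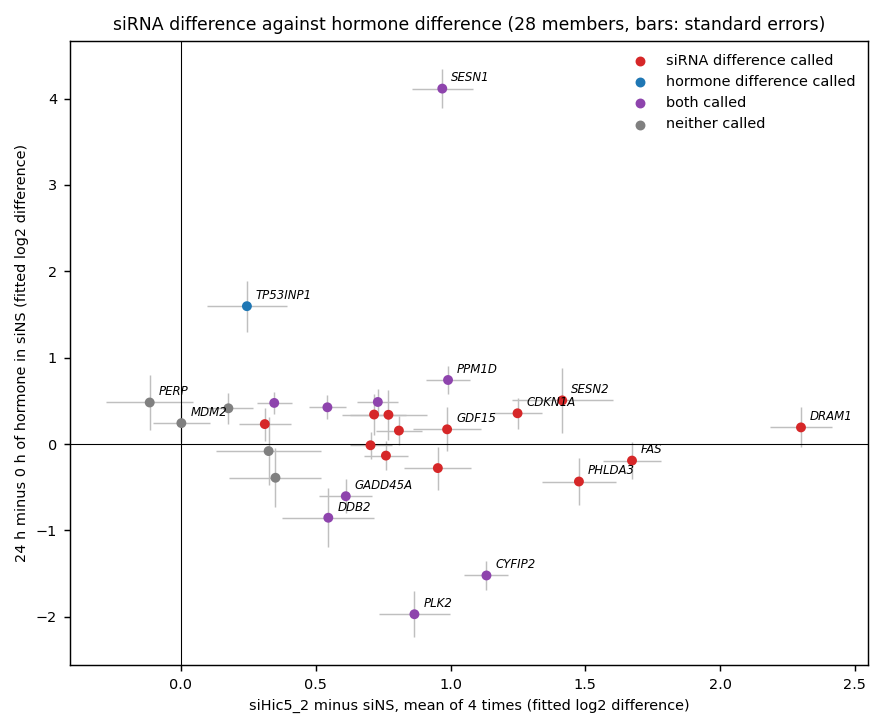
Fitted log2 difference between siHic5_2 and siNS in the mean of 4 times (x axis) against the fitted 24 h hormone difference in siNS (y axis) for the 28 tested p53 targets, with standard errors and colours for the comparisons in which a gene was called. Most genes lie to the right of 0 and near 0 in height, TP53INP1 is the gene called for hormone alone in the fit without a replicate block, and SESN1, PLK2 and CYFIP2 lie far from 0 on both axes. Both axes share the siNS arrays.

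The variance of each gene over the 32 siNS and siHic5_2 arrays was divided between siRNA, hormone time, their interaction and the spread within groups. The median shares of the 28 genes were 49.9%, 11.5%, 3.75% and 21.9%. The siRNA share exceeded the time share for 20 genes and was over 50% for 14, led by DRAM1 (91.1%), FAS (88.8%) and CDKN1A (81.2%). FAS, GDF15 and PLK3 are among the 28 genes and passed the filter only with the siHic5_2 arrays counted. The FAS share is therefore a description, as its siNS values all lay below background. No such split was made over all genes. Time took over 50% for 3 genes: TP53INP1 (73.8%), SESN1 (72.3%) and PLK2 (66.4%). The interaction share was over 10% for 8 genes, with GADD45A at the top (26.0%). These shares were not tested or corrected for degrees of freedom, so the spread within groups alone can give a share near 10%. PERP, with 10.2%, and MDM2, near background with 15.1%, are among the 8. The count is therefore not a count of genes with an altered hormone response. GDF15 is among the 8, but it lay below background in every siNS group and in siHic5_2 at 4 and 24 h. Its share is therefore not a measured size. For the brightest ZMAT3 probe 85.8% and for PERP 80.7% lay within groups. The other kept ZMAT3 probes, which were called higher with siHic5_2, were not split in this way.

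Genes around the pathway were read from lists of general knowledge, which were also chosen with earlier results of these data known. Of 54 other reported p53 targets, 42 were tested, and 29 were higher and 3 lower with siHic5_2 in the mean of the 4 times, where 29.7% of all genes were higher and 24.8% lower. The higher ones included EDA2R, a death receptor (1.43 ± 0.12), SUSD6, which acts in DNA damage-induced death (1.35), and TRIM22 (1.23), with DGKA also called (adjusted p = 1.84e-10, 21 of 32 arrays above background). SFN (14-3-3 sigma), a checkpoint protein of epithelial cells, was lower (-1.53 ± 0.17), as were TNFAIP8 (-0.95) and STEAP3 (-0.46). Of 19 tested regulators of p53, 2 were higher and 5 lower, a smaller share than the 29.7% and 24.8% of all genes in either direction together. The higher ones were the deacetylase SIRT1 (0.49) and PPP1R13B (ASPP1, 0.48). Lower were the damage kinases CHEK2 (-0.89), ATM (-0.70) and CHEK1 (-0.27), the ribosomal protein gene RPL5 (-0.39), and MDM4, an MDM2 relative that was above background on 10 of 32 arrays (adjusted p = 0.0105).

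Of 20 cell cycle genes that p53 represses through the DREAM complex, 0 were higher and 19 lower in the mean of the 4 times (29.7% and 24.8% of all genes), with a median of -0.82 against 0.02 for all genes. RRM2, the S-phase ribonucleotide reductase subunit, differed by -3.06 ± 0.19, CDC20 by -1.18 and CDC25C by -1.09, and MKI67 was also called lower (adjusted p = 7.23e-09). The mean level of this list was 10.22 to 10.53 on siNS arrays at 0 h and 9.28 to 10.18 on siHic5_2 arrays. On NI arrays at 0 h it was 9.95 to 10.70, which overlapped the siHic5_2 arrays. Of 18 ATF4 targets, genes of the amino acid and endoplasmic reticulum stress response, 13 were higher and 2 lower in the mean (29.7% and 24.8% of all genes), with a median of 0.67: PSAT1 by 1.31, CTH by 1.08, VLDLR by 1.00 and CEBPG by 0.94. The mean level of that list was 9.96 to 10.28 on siNS arrays at 0 h, 9.76 to 10.29 on NI arrays and 10.53 to 10.80 on siHic5_2 arrays. SESN2 and GDF15 respond to ATF4 as well as to p53. The part of the cell cycle and ATF4 genes in the differences of the p53 targets was not tested.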

How the data were processed

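Gene expression was measured on 48 Illumina bead arrays of a U2OS clone, in 12 groups of 4 set from the labels. The members and gene lists were chosen with earlier results of these data known.

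The deposited raw table gives a bead intensity and a detection p-value per probe and array, per the file headers; 0 columns belonged to no sample. The deposited detection p-values matched their own-named arrays on 0 of 48 columns and another array on 32, so they were recomputed from 770 negative controls. The authors also deposited processed log2 values, made with R 2.15.3 and limma 3.14.4 per the submitters' processing notes. Their normalization is not stated in the labels or headers. The columns of that table followed their own raw intensities on 48 of 48 arrays, had medians of 5.422 to 5.425 and are not centred by gene, and the scale was read from the values. They differed by at most 0.263 from the values used here and are an alternative.

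Intensities were corrected and normalized with neqc of limma 3.58.1 (R 4.3.3, offset 16, quantile, log2). Of the 47323 probes, 20912 had a detection p under 0.01 on at least 4 arrays, 15904 of these had 1 gene symbol, and the brightest probe per gene gave 11886 genes. On the platform, 30113 probes had 1 symbol, 8 several and 17202 none. One linear model with 12 group means was fitted in limma (36 residual degrees of freedom, Benjamini-Hochberg adjustment per comparison, threshold 0.05) and tested on simulated data. For a group with no array above background, a fold is a bound: on each array the probe's own value, or the lowest signal called above background if that was greater, stands in for its level. The number of arrays limits the precision. Within a group, the SD between arrays over genes was 0.343 to 0.674.

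Every tested member is named. Values per array are given for members called in the mean siHic5_2 difference with a size of at least 0.7, members called for hormone in siNS with a size of at least 1, members called for the response difference, and MDM2 and CDKN1A. GADD45A, ZMAT3 and others outside that rule were added after their values were seen. Other genes are the siRNA target, glucocorticoid-induced controls, all called p53 regulators and at most 4 called genes of each other list. Same-numbered arrays of a state deviated together (correlations of 0.123 to 0.730 in every pair), while those of siHic5_2 and siNS did not (-0.177 to 0.107). Those of siNS and NI did at 0, 2 and 4 h (0.195 to 0.732) and not in every pair at 24 h (from -0.015). The main fit, with its mean over the 4 times, did not allow for the pairing within a state. The alternatives tried were the authors' values, other background corrections, other filters, other probe rules, slide and replicate blocks, array weights, only the groups of a comparison, NI as control, leaving out arrays and, chosen after seeing the data, a block within each state, a block over siNS and NI arrays, and a filter on NI and siNS arrays alone.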

Additional observations from a re-analysis of the deposited data

Results flagged for a closer look

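The response to 24 h of hormone differed between siHic5_2 and siNS arrays for CYFIP2 (0.98 on the log2 scale) and SESN1 (-2.43), and for GDF15 the fitted response difference was -1.51 at 4 h and -1.82 at 24 h, which are not measured sizes because its siNS groups were below background.

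The gap test was run on 228 combinations of a group of 4 arrays and 1 of 19 members, not on every tested member. The combinations share arrays and are not independent. In 13 of them 1 array stood apart from the others, where chance at 1 in 20 gives 11.4. In siNS these were MDM2 at 4 h (replicate 3, 6.26, others 5.85 to 5.91), PPM1D at 0 h (replicate 1, 9.49, others 9.88 to 9.95) and at 2 h (replicate 2, 10.07, others 9.80 to 9.85), TNFRSF10B at 0 h (replicate 2, 9.75, others 10.42 to 10.53), BAX at 24 h (replicate 3, 11.37, others 10.41 to 10.47), TIGAR at 2 h (replicate 1, 9.61, others 9.82 to 9.86) and GDF15 at 24 h (replicate 3, 5.58, others 4.78 to 4.90). In siHic5_2 they were PPM1D at 0 h (replicate 4, 11.32, others 10.87 to 10.93) and at 24 h (replicate 2, 11.09, others 11.38 to 11.43), CYFIP2 at 0 h (replicate 3, 11.05, others 11.28 to 11.31), RRM2B at 24 h (replicate 1, 11.12, others 10.51 to 10.60) and DRAM1 at 0 h (replicate 4, 10.65, others 10.11 to 10.16). In NI it was BAX at 4 h (replicate 4, 10.86, others 11.05 to 11.08).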

How the results depend on the processing

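The counts of members higher with siHic5_2 stayed within 1.5 times of the reported ones under every alternative run other than leaving out arrays. Without arrays they ranged from 14 to 21 at 0 h, 16 to 19 at 2 h, 11 to 18 at 4 h, 10 to 17 at 24 h and 20 to 23 in the mean, with 11 at 4 h and 10 at 24 h when replicate 4 was left out of every group. Replicate numbers did not pair siHic5_2 with siNS arrays, and a replicate block over all arrays gave 20, 19, 17, 17 and 23. Hormone counts without arrays ranged from 1 to 4, 2 to 3 and 8 to 10 in siNS at 2, 4 and 24 h, 1 to 2, 2 to 4 and 8 to 11 in NI, and 1 to 2, 3 to 4 and 5 to 7 in siHic5_2, and those of the response difference from 0 to 0, 0 to 1 and 2 to 3. The siNS count at 2 h was 1 with slides as a block or only the groups compared. The NI count at 2 h was 1 with the authors' values, no background correction, normexp without controls, no filter, each probe tested, slides as a block or only the groups compared. The replicate block over all arrays gave 4 in siNS at 4 h, 5 in NI at 4 h and 2 in siHic5_2 at 2 h; array weights gave 5 in NI at 4 h. The mean of a gene's probes gave 2 in siHic5_2 at 2 h, and only the groups compared gave 2 at 4 h. The block within each state, chosen after seeing the data, gave 5 in siNS at 4 h, 4, 5 and 17 in NI, 3, 7 and 13 in siHic5_2, and 1, 2 and 5 for the response difference. It removed no call of a member made without it. The response difference at 4 h was called for 0 members with no background correction, normexp without controls, no filter, detection on at least 12 arrays, or the filter on NI and siNS arrays alone, which leaves GDF15 out. With the mean of probes, CDKN1A in siHic5_2 at 24 h was -0.16 in place of 0.48. Of 1927 values of the 139 single calls under alternatives other than leaving out arrays, 1873 kept the call, 53 lost it and 1 reversed; of 2228 without arrays, 2058 kept it and 170 lost it. The cause was not tested. Signal limits GDF15, FAS, MDM2 and PLK3, which lay below background in many groups.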
